A study of Mus musculus with 10 samples.

Results

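The Wnt and BMP signals that control the hair follicle, together with their secreted antagonists, were examined in skin of graft-recipient C3H/HeJ mice at week 12. They were represented by 10 genes: the Wnt ligands Wnt10a, Wnt10b, Wnt5a and Wnt4, the Wnt antagonists Sfrp1 and Sfrp2, the BMP ligands Bmp2 and Bmp4 and the BMP antagonists Nog and Grem1. Members were all probe sets to which the platform annotation gave exactly 1 symbol from this list. This yielded 18 probe sets of 45037, and each of the 10 genes was measured: Sfrp1 by 5 probe sets, Wnt5a by 4, Wnt4 by 2 and the other genes by 1 each. All mice carried a graft of skin from an alopecic C3H/HeJ donor, a model in which recipients develop alopecia areata (AA), an autoimmune loss of hair. From the time of grafting, 5 mice received the JAK1/2 inhibitor baricitinib systemically by implanted osmotic pump and 5 received vehicle in the same way, and each of the 10 arrays measured whole skin of 1 mouse. Both groups shared strain, graft, route and sampling time, and no ungrafted or untreated skin was analysed here.

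Wnt proteins bind Frizzled receptors with LRP5 or LRP6 co-receptors and stabilize beta-catenin, which acts with TCF/LEF factors to switch on genes that start and maintain hair growth; Wnt5a acts largely through beta-catenin-independent routes. BMP proteins signal through SMAD factors and hold hair follicle stem cells at rest, so that growth begins when Wnt activity rises and BMP activity is blocked. SFRP proteins bind Wnts outside the cell, and noggin (Nog) and gremlin (Grem1) bind BMPs.

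The 250 bases before the annotated start are shown for Wnt4, whose 2 probe sets differed from each other, and for Bmp4, the BMP ligand with the larger difference over all arrays. Both are RefSeq sequences of mouse build GRCm38.p6, and 5 of the 10 genes were matched in that table. The Wnt4 window is on chromosome 4 (chr4:137277385-137277634, plus strand) and the Bmp4 window on chromosome 14 (chr14:46390670-46390919, minus strand). Capitals mark the GC box GGGCGG on either strand.
Wnt4: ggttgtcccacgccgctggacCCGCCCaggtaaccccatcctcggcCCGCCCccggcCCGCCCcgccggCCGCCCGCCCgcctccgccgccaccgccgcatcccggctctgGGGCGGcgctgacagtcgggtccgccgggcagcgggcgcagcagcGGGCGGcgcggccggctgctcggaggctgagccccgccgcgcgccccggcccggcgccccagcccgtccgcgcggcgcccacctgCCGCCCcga
Bmp4: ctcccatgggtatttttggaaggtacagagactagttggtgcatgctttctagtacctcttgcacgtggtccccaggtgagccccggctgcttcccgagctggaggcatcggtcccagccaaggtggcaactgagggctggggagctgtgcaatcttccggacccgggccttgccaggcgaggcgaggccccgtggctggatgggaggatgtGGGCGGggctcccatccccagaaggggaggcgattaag
The GC box occurred 8 times in the Wnt4 window, with some matches overlapping, and 1 time in that of Bmp4; 32.7% of 32851 windows of this length held it. Neither the STAT core TTCNNNGAA (in 7.02% of windows) nor the TCF/LEF core CTTTGA (13.8%), each searched on both strands, was found in the windows of the 5 matched genes. These are matches of letters and not measured binding sites.

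Values were log2 expression levels, so that a difference of 1 is a doubling, and all differences are baricitinib minus vehicle. Vehicle replicate 5 stood apart: it correlated with the other arrays at r between 0.697 and 0.729, against 0.946 to 0.994 among the other 9 (r across probe sets, which are not independent replicates). Its spread of values was also smaller (SD 2.28 log2, against 2.71 to 2.79). Differences are therefore given with and without it. RNA quality also moved with the groups. The signal of Gapdh and beta-actin at their 3' ends exceeded that at their 5' ends, a 3'/5' gap that widens in degraded or short RNA, by 0.99 to 1.18 log2 in baricitinib treated skin, 1.01 in vehicle replicate 4 and 2.0 to 4.35 in the other vehicle arrays. Skin markers were present on all arrays, with keratinocyte markers (5 of 5 measured) averaging 12.06 to 12.75 log2 in baricitinib treated skin and 12.82 to 13.26 in vehicle control skin, with 12.32 on the divergent vehicle replicate 5; the vehicle ranges below are likewise of replicates 1 to 4. Follicle stem cell markers (5 of 5) were at 10.30 to 11 and 9.22 to 10.01 with 8.69, dermal fibroblast markers (5 of 5) at 11.22 to 12.06 and 10.78 to 11.22 with 10.87, and skeletal muscle markers (5 of 5) at 10.53 to 12.46 and 10.75 to 11.70 with 9.76. Adipocyte markers (4 of 5) were at 9.05 to 10.94 and 7.45 to 8.75 with 7.89. Endothelial markers (4 of 4) were at 7.21 to 8.48 and 6.82 to 7.04 with 6.72, dermal papilla markers (6 of 6) at 7.31 to 7.89 and 6.89 to 7.69 with 6.09, and leukocyte markers (5 of 5) at 7.35 to 9.13 and 9.07 to 9.37 with 7.29. The leukocyte mean joined unlike markers: Cd68 was higher in baricitinib treated skin (difference 0.85) and Itgam was dim on all arrays (3.48 to 4.27). On vehicle replicate 5, Cd8a (4.81), Cd68 (6.48) and Cd3e (10.08) were below the other vehicle arrays. Ptprc there (10.80) was close to the lowest of the other vehicle arrays (10.81). In whole skin, fewer cells of a type and less RNA per cell cannot be told apart. The part of these markers and of RNA quality in the results was not tested.

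At a limma adjusted p of 0.05, 0 of the 18 members and 0 of the 45037 probe sets were called (0%), with vehicle replicate 5 and without it. The adjusted p of the members ran from 0.278 for Wnt10a to 0.910 for Grem1 with all arrays, and from 0.073 to 0.980 without vehicle replicate 5. At an unadjusted p under 0.05, 1 member probe set was higher (Sfrp1 1460187_at) and 1 lower (Wnt10a), against 9.21% and 5.62% of all probe sets. Without vehicle replicate 5 there were 2 higher (the same Sfrp1 probe set and Bmp2) and 2 lower (Wnt10a and Wnt4 1441687_at), against 14.4% and 13.5% of all probe sets. The groups overlapped at each of the 18 when all arrays were used, while they did not overlap at 3.09% (higher) and 2.03% (lower) of all probe sets. Without vehicle replicate 5, Wnt10a became the 1 member whose groups did not overlap, against 4.11% of all probe sets in that direction and 4.42% in the other. Weighting arrays by their quality called 2 members, Wnt10a and Sfrp1 1460187_at, but also 21.5% of all probe sets. In sign, 14 member probe sets were higher and 4 lower, with a median of 0.31 against -0.07 for all probe sets; without vehicle replicate 5 the counts were 13 and 5 and the medians 0.15 and -0.04.

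**Figure D1:**
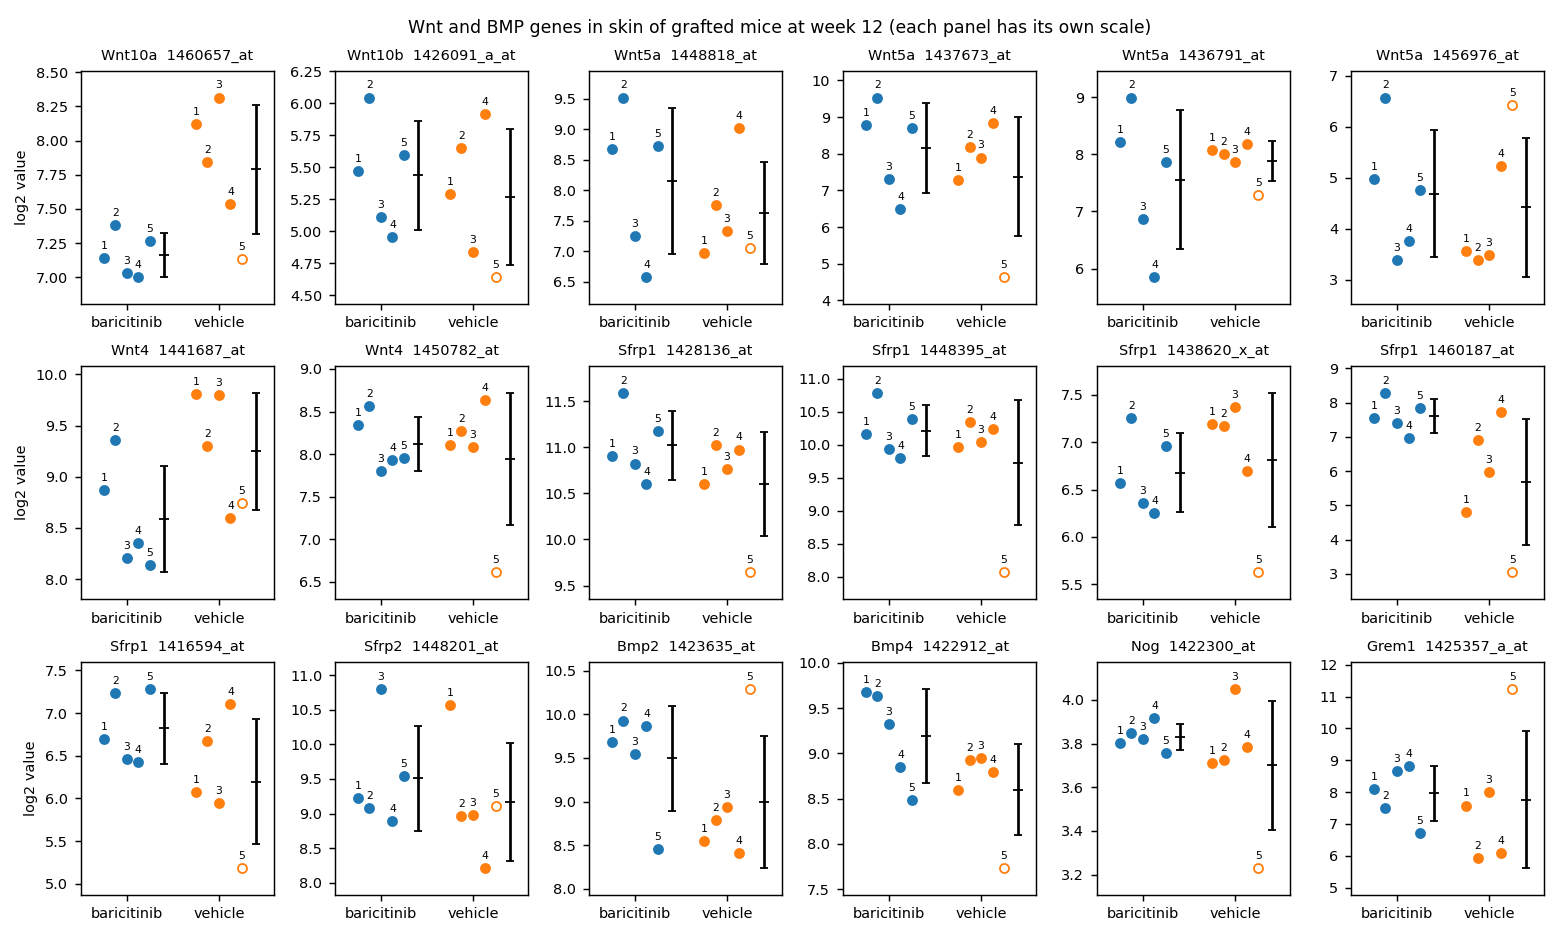
Log2 value of each of the 18 member probe sets on every array, with baricitinib arrays in blue, vehicle arrays in orange, vehicle replicate 5 as an open circle, the replicate number above each point and the group mean ± SD (n = 5) in black. For Wnt10a the baricitinib arrays lie at 7.0 to 7.38, below vehicle replicates 1 to 4 at 7.54 to 8.31.

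**Figure D2:**
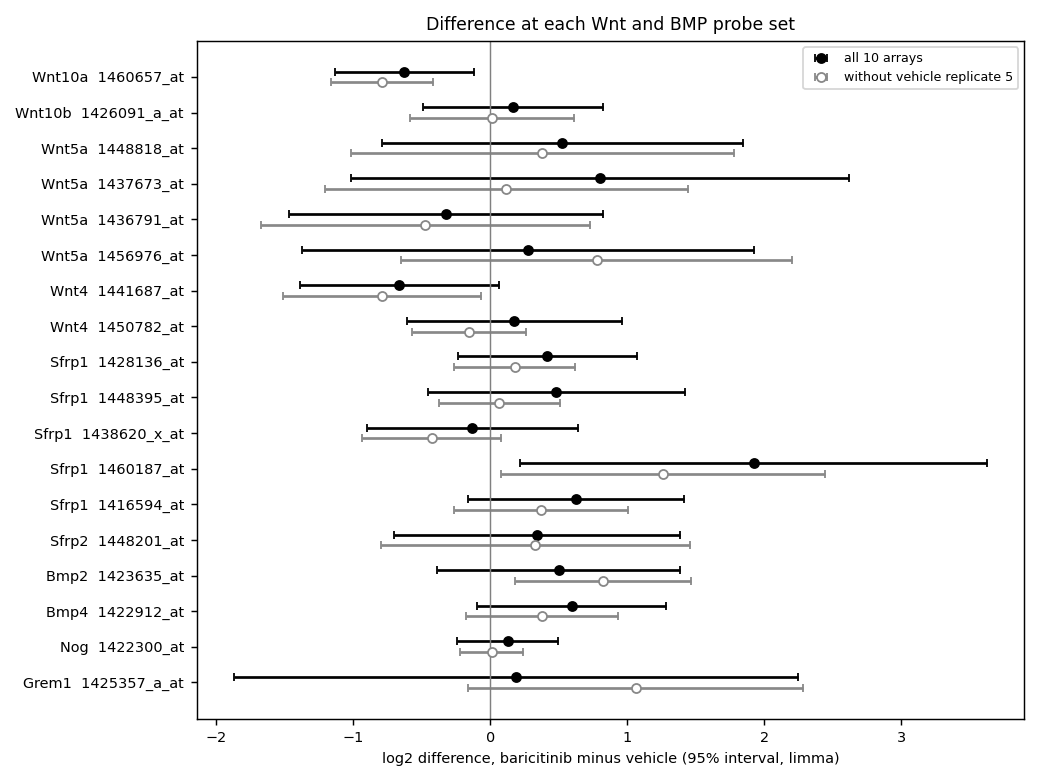
Log2 difference (baricitinib minus vehicle) at each member probe set with its 95% interval from limma, with filled points for all 10 arrays and open points where vehicle replicate 5 was left out. Only the intervals of Wnt10a and Sfrp1 1460187_at leave out 0 with all arrays, and neither probe set passed after adjustment.

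Wnt10a, a ligand of the beta-catenin pathway made in follicle and epidermal epithelium, had the smallest p of the 18 probe sets, with lower values in baricitinib treated skin. Its values were 7.14, 7.38, 7.03, 7.0 and 7.27 log2 in baricitinib replicates 1 to 5 and 8.12, 7.85, 8.31, 7.54 and 7.13 in vehicle replicates 1 to 5. All baricitinib arrays thus lay below vehicle replicates 1 to 4, and vehicle replicate 5 lay among them. The means were 7.16 ± 0.16 and 7.79 ± 0.47 (SD, n = 5), a difference of -0.63 ± 0.23 (SE) or 1.54-fold (limma adjusted p = 0.278). Without vehicle replicate 5 it was -0.79 ± 0.17 or 1.73-fold (limma adjusted p = 0.073). Among vehicle replicates 1 to 4 the level followed the order of both the 3'/5' gap and the keratinocyte markers. Replicate 3 had the highest Wnt10a and the widest gap (4.35), followed by replicates 1 (3.03), 2 (2.0) and 4 (1.01). Vehicle replicate 5 did not follow the order of the gap, with a gap of 4.06 and the lowest Wnt10a of the vehicle arrays. Its mean of keratinocyte markers, 12.32, was also the lowest of the vehicle arrays. The baricitinib arrays did not follow the keratinocyte order. Baricitinib replicate 2 had the highest Wnt10a of its group (7.38) and the lowest keratinocyte mean (12.06). Baricitinib replicate 3 had the highest keratinocyte mean (12.75) and a Wnt10a of 7.03. Vehicle replicate 4 had a gap within the baricitinib range and a Wnt10a level of 7.54, against 7.38 on the highest baricitinib array.

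Wnt10b, the close relative of Wnt10a that is expressed in growing follicles, did not separate the groups. It was at 4.95 to 6.04 log2 in baricitinib treated skin and at 4.64 to 5.92 in vehicle control skin, and the difference was 0.17 ± 0.29 (SE, 95% interval -0.49 to 0.82). Without vehicle replicate 5 the difference was 0.01.

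Wnt4, a ligand made in epidermal and follicle keratinocytes, was read differently by its 2 probe sets. Probe set 1441687_at was at 8.87, 9.36, 8.21, 8.35 and 8.14 log2 in baricitinib replicates 1 to 5 and at 9.81, 9.30, 9.80, 8.59 and 8.74 in vehicle replicates 1 to 5. Baricitinib replicates 3 to 5 were below all vehicle arrays, and replicates 1 and 2 were among them. Its difference was -0.66 ± 0.33 (SE, limma adjusted p = 0.363), and -0.79 ± 0.32 without vehicle replicate 5 (limma adjusted p = 0.152). Probe set 1450782_at had a difference of the other sign, 0.18 ± 0.35, and of -0.16 ± 0.19 without vehicle replicate 5, whose value of 6.61 was the lowest of all arrays (7.80 to 8.63 on the others). Over the 9 remaining arrays the 2 probe sets correlated at r = 0.322. At 1441687_at vehicle replicates 2, 4 and 5, with gaps of 2.0, 1.01 and 4.06, lay within the baricitinib range of 8.14 to 9.36, and vehicle replicates 1 and 3, with gaps of 3.03 and 4.35, lay above it. The direction of Wnt4 was therefore not settled.

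**Figure D3:**
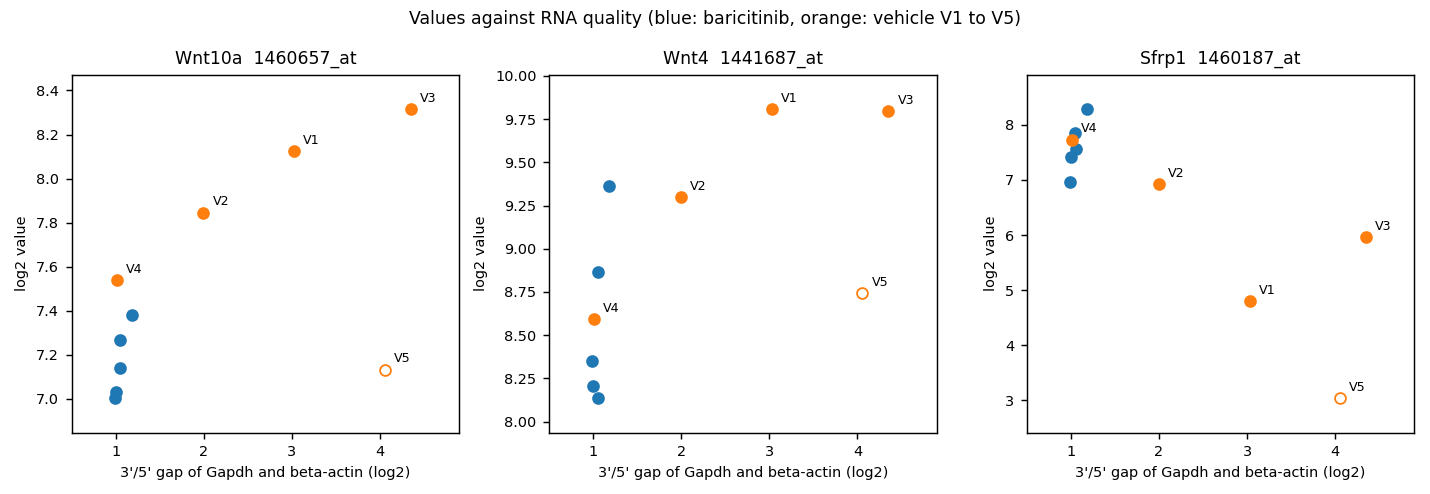
Log2 value of Wnt10a, Wnt4 1441687_at and Sfrp1 1460187_at against the gap (log2) between 3' and 5' probe sets of control transcripts Gapdh and beta-actin, with baricitinib arrays in blue, vehicle arrays in orange and vehicle replicate 5 open. Vehicle replicate 4, with a gap of 1.01, sits within the baricitinib range for Wnt4 and Sfrp1 and just above it for Wnt10a.

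Wnt5a, expressed in the dermal papilla and follicle epithelium, varied more within the groups than between them. At its brightest probe set, 1448818_at, it was at 8.68, 9.52, 7.25, 6.58 and 8.72 log2 in baricitinib replicates 1 to 5 and at 6.98, 7.76, 7.33, 9.02 and 7.05 in vehicle replicates 1 to 5. High and low arrays were thus found in both groups. The difference was 0.52 ± 0.59 (SE, 95% interval -0.79 to 1.84), and 0.38 ± 0.62 without vehicle replicate 5. Probe sets 1437673_at, 1436791_at and 1456976_at gave 0.80, -0.32 and 0.27, with 95% intervals that all included 0. They gave 0.12, -0.47 and 0.78 without vehicle replicate 5, again with intervals that included 0. The last 2 changed sign when baricitinib replicate 4 (0.10) or baricitinib replicate 2 (-0.20) was left out. Over the 9 arrays other than vehicle replicate 5, pairs of these probe sets correlated at r between 0.605 and 0.972, so they mostly ordered the arrays alike.

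The order of the arrays by Wnt5a resembled that by hair shaft markers, an observation made after the values were seen. The 4 measured markers of the hair shaft, whose keratins are made in growing follicles, averaged 12.10, 12.40, 7.45, 9.36 and 11.15 log2 in baricitinib replicates 1 to 5 and 9.98, 10.91, 10.10, 11.54 and 6.28 in vehicle replicates 1 to 5. The 5 arrays with the highest hair shaft markers came from both groups: baricitinib replicates 1, 2 and 5 and vehicle replicates 2 and 4. They were also the 5 highest arrays at 2 of the 4 Wnt5a probe sets, at Wnt10b and at 3 of the 5 Sfrp1 probe sets. At the other probe sets of Wnt5a and Sfrp1, at Wnt10a, Wnt4 and Bmp4, 3 or 4 of them were among the 5 highest. Only 1 of them was among the 5 highest for Grem1 and 2 for each of Sfrp2, Bmp2 and Nog. The share of all probe sets with this order was not counted, so the match cannot be called particular to the members. Lef1, a transcription factor through which beta-catenin acts and a member of the fixed pathway lists, was among the 2 genes most like Wnt5a over the 9 arrays (r = 0.981). It was at 11.39, 12.02, 10.01, 9.57 and 11.48 log2 in baricitinib treated skin and at 10.20, 10.60, 9.85, 11.79 and 10.26 in vehicle control skin, with a difference of 0.35 ± 0.52 (SE), and 0.28 ± 0.56 without vehicle replicate 5.

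**Figure D4:**
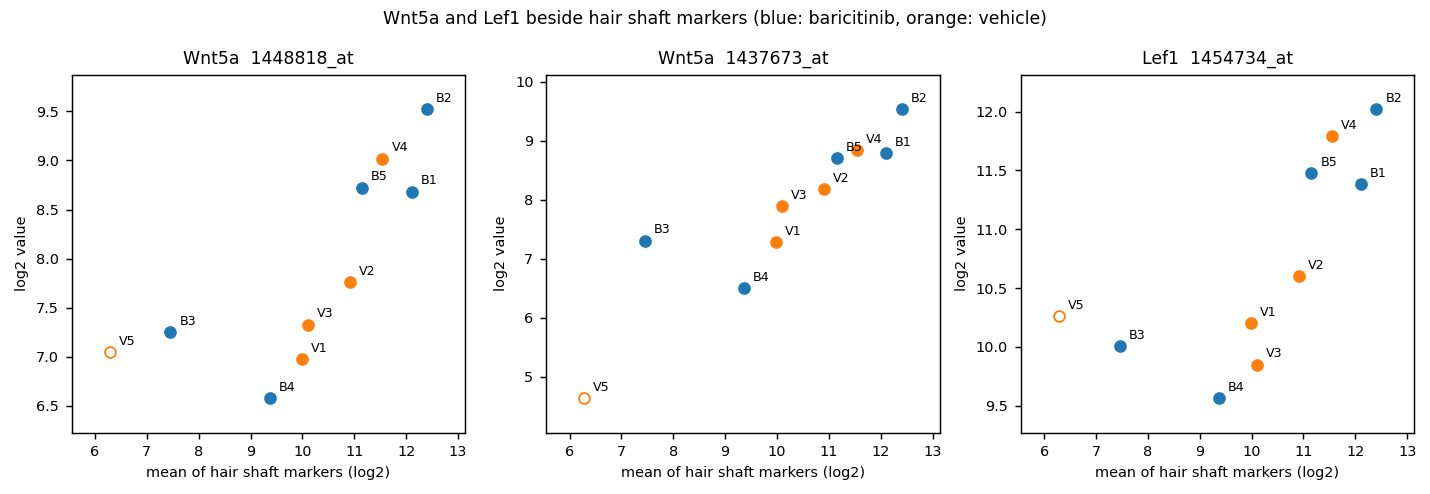
Log2 value of Wnt5a (2 probe sets) and Lef1 against the mean log2 value of the 4 measured hair shaft markers on each array, baricitinib in blue, vehicle in orange and vehicle replicate 5 open. Baricitinib replicates 1, 2 and 5 and vehicle replicates 2 and 4 have the 5 highest values in each panel, with hair shaft means of 10.91 to 12.40. Vehicle replicate 2 is the lowest of these 5 in each panel (Wnt5a 7.76 and 8.18, Lef1 10.60).

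Sfrp1, a secreted Wnt antagonist, had positive differences at 4 of its 5 probe sets, of very unequal size. The largest, at 1460187_at, was between 7.56, 8.28, 7.41, 6.96 and 7.86 log2 in baricitinib replicates 1 to 5 and 4.79, 6.92, 5.96, 7.73 and 3.05 in vehicle replicates 1 to 5. Every baricitinib array was above 4 of the 5 vehicle arrays, and vehicle replicate 4 was among them. The difference was 1.92 ± 0.76 (SE) or 3.79-fold (limma adjusted p = 0.30), and 1.26 ± 0.53 or 2.40-fold without vehicle replicate 5 (limma adjusted p = 0.159). The vehicle arrays with low values here were those with a 3'/5' gap from 2.0 to 4.35. At the 2 brightest probe sets, 1428136_at and 1448395_at, the differences were only 0.42 ± 0.29 and 0.48 ± 0.42 (SE), and 0.18 and 0.07 without vehicle replicate 5. These probe sets were at 10.60 to 11.59 and 9.80 to 10.78 log2 in baricitinib treated skin and at 10.60 to 11.02 and 9.96 to 10.34 in vehicle replicates 1 to 4, so the groups overlapped almost wholly. Probe set 1416594_at gave 0.62 ± 0.35, and 0.37 ± 0.28 without vehicle replicate 5. Probe set 1438620_x_at gave -0.13 ± 0.35, which was -0.43 ± 0.23 without vehicle replicate 5 and 0.009 without vehicle replicate 3. Over the 9 arrays the 2 brightest probe sets agreed closely (r = 0.971), whereas 1460187_at and 1438620_x_at did not order the arrays alike (r = -0.328). The difference at Sfrp1 thus depended on the probe set read.

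Sfrp2, a related antagonist made by dermal fibroblasts, was at 9.23, 9.08, 10.81, 8.89 and 9.54 log2 in baricitinib replicates 1 to 5 and at 10.56, 8.97, 8.98, 8.21 and 9.11 in vehicle replicates 1 to 5. The high arrays were 1 in each group, baricitinib replicate 3 and vehicle replicate 1. The difference was 0.34 ± 0.47 (SE, 95% interval -0.70 to 1.39) and 0.33 ± 0.50 without vehicle replicate 5. It was 0.02 without baricitinib replicate 3 and 0.69 without vehicle replicate 1, the arrays with the high values.

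The BMP ligands had positive differences that did not pass the test. Bmp2, which among skin cells is made by follicle epithelium and by dermal adipocytes, was at 9.68, 9.93, 9.54, 9.87 and 8.46 log2 in baricitinib replicates 1 to 5 and at 8.55, 8.79, 8.93, 8.41 and 10.29 in vehicle replicates 1 to 5. Baricitinib replicates 1 to 4 were above vehicle replicates 1 to 4, baricitinib replicate 5 was within their range, and vehicle replicate 5 was the highest of all. The difference was therefore 0.50 ± 0.40 (SE, limma adjusted p = 0.494) with all arrays and 0.82 ± 0.29 or 1.77-fold without vehicle replicate 5 (limma adjusted p = 0.116). Baricitinib replicate 5 was also the baricitinib array with the highest mean of leukocyte markers, 9.13 against 7.35 to 7.78 log2 in the other baricitinib arrays and 9.07 to 9.37 in vehicle replicates 1 to 4. Of these markers Cd8a differed most between that array and the other baricitinib arrays, at 10.02 against 4.22 to 4.93 log2. Baricitinib replicate 5 had the lowest adipocyte markers of the group as well, 9.05 against 10.07 to 10.94. In vehicle control skin, replicate 5 had the highest Bmp2 (10.29) with an adipocyte marker mean of 7.89. Vehicle replicate 4 had the lowest Bmp2 (8.41) with the highest adipocyte mean of the vehicle arrays, 8.75. The part of adipocyte markers in the Bmp2 level was not tested.

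Bmp4, made by the dermal papilla and dermal fibroblasts, was at 9.68, 9.64, 9.33, 8.85 and 8.48 log2 in baricitinib replicates 1 to 5 and at 8.59, 8.93, 8.94, 8.80 and 7.74 in vehicle replicates 1 to 5. Baricitinib replicates 1 to 3 were above all vehicle arrays, and replicate 5 was again the lowest of its group. The difference was 0.59 ± 0.31 (SE) or 1.51-fold (limma adjusted p = 0.379), and 0.38 ± 0.25 without vehicle replicate 5 (limma adjusted p = 0.329).

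The BMP antagonists did not separate the groups. Nog was dim, at 3.76 to 3.92 log2 in baricitinib treated skin and 3.23 to 4.05 in vehicle control skin, below the 25th percentile (4.02 to 4.77) of each of the 10 arrays. Its difference was 0.13 ± 0.17 (SE), and 0.01 ± 0.10 without vehicle replicate 5. Nog and Wnt5a 1456976_at were the 2 members with a mean below 5 log2, and 16 of 18 passed that filter. Grem1 was at 8.09, 7.50, 8.66, 8.81 and 6.73 log2 in baricitinib replicates 1 to 5 and at 7.58, 5.94, 7.99, 6.08 and 11.25 in vehicle replicates 1 to 5. Vehicle replicate 5 was far above every other array, and among the rest the groups overlapped. The difference of 0.19 ± 0.93 (SE, limma adjusted p = 0.910) became 1.06 ± 0.55 without vehicle replicate 5 (limma adjusted p = 0.229), and it was negative, down to -0.27, when baricitinib replicate 4 or vehicle replicate 2 or 4 was left out.

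Other genes of the 2 pathways were taken from 7 lists, with the brightest probe set of each gene. Of 91 measured genes 63 were higher and 28 lower, with a median of 0.24 against 0.005 for all 18193 genes; without vehicle replicate 5 the counts were 55 and 36 and the medians 0.07 and -0.06. Of these 0 were called by limma (smallest adjusted p 0.221, and 0.073 without vehicle replicate 5). At an unadjusted p under 0.05, 19 were higher and 0 lower, against 9.81% and 6.22% of all genes. Without vehicle replicate 5 there were 23 higher and 4 lower, against 13.3% and 16.1%. The 19 were Wnt receptors and agonists (5 of 24), Wnt inhibitors (4 of 13), Wnt effectors and targets (1 of 11), BMP ligands and receptors (2 of 11), BMP inhibitors (4 of 11) and BMP effectors and targets (3 of 11), with none of the 10 other Wnt ligands.

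The gene with the smallest p of each list is given here. Fzd4, a Frizzled receptor that is also prominent in endothelium, was at 9.70 to 10.90 log2 in baricitinib treated skin and 8.68 to 9.88 in vehicle control skin (difference 1.29 ± 0.29, SE, limma adjusted p = 0.221). Its other probe sets gave 1.21 and, at the dimmest, 0.34. Frzb, a secreted Wnt antagonist of the SFRP family, was at 6.13 to 7.75 and 4.97 to 5.97, without overlap (difference 1.23 ± 0.33, limma adjusted p = 0.226). A second, dimmer Frzb probe set gave 0.50 and did not pass either. Bmper, a secreted regulator of BMP activity, was at 8.06 to 8.66 and 6.29 to 8.11 (difference 1.35 ± 0.36), and Gdf10, a ligand of the TGF-beta superfamily, at 7.33 to 9.14 and 6.29 to 7.49 (difference 1.3 ± 0.39). Tcf7l1, a TCF factor of resting stem cells, differed by 0.73 ± 0.32, and at its other, dimmer probe set by 0.77 (0.74 without vehicle replicate 5). Smad5, which carries the BMP signal to the nucleus, differed by 1.29 ± 0.44, and its other 2 probe sets by 1.62 and 0.13. For Smad5, vehicle replicate 4 (9.74) was within the baricitinib range of 9.58 to 9.93. Wnt11, a further Wnt ligand, differed by -0.47 ± 0.27. Vehicle replicate 4 was likewise within the baricitinib range for Fzd4 (9.88) and Bmper (8.11), but not for Frzb, Gdf10, Tcf7l1 or Wnt11. The differences without vehicle replicate 5 were 1.24 for Fzd4, 1.20 for Frzb, 1.15 for Bmper, 1.14 for Gdf10, 0.41 for Tcf7l1, 0.87 for Smad5 and -0.34 for Wnt11.

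**Figure D5:**
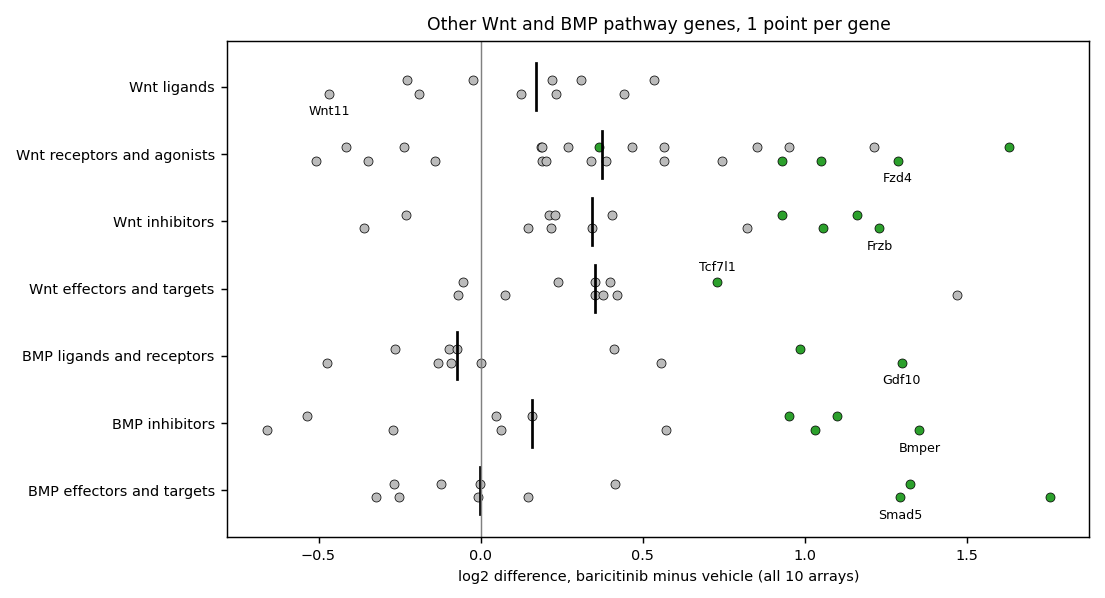
Log2 difference (baricitinib minus vehicle, all 10 arrays) of each measured gene of the 7 pathway lists, in green where the unadjusted limma p was under 0.05 and grey otherwise, with the list median as a black bar and the gene with the smallest p of each list named. All 19 green points lie to the right of 0, and none passed after adjustment.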

How the data were processed

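NuGen kits were used to amplify and label skin RNA, which was hybridized to Affymetrix mouse genome arrays. The deposited data were log2 expression levels for each probe set. The authors obtained them by RMA (release not given in the sources used here), run for this experiment by itself. RMA corrects the background, normalizes the arrays to each other and summarizes the probes of each set. The study's methods removed 1 vehicle array that the labels do not name, so all 10 arrays were kept and each was left out in turn. After 64 control probe sets were set aside, limma (3.58.1, under R 4.3.3) was fitted by lmFit with eBayes to 45037 without a filter; tests were two-sided and p-values adjusted by Benjamini and Hochberg's method over that whole set. The platform annotation gave 1 symbol to 34945 probe sets, and 6 list genes were not matched. All member probe sets were named, and the gene with the smallest p of each pathway list. Members and lists were chosen with earlier results of these data known. Alternatives were a mean above 5 log2, quantile normalization, weights for array quality, a replicate block, and trend and robust settings of eBayes. The calculation was tested on simulated data. The number of mice limits the precision.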

Additional observations from a re-analysis of the deposited data

Results flagged for a closer look

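Dixon's criterion was applied to 36 groups of 5 arrays (18 member probe sets in each of the 2 treatment groups). In 5 groups an array lay far from the rest, which about 5% of independent groups show by chance. The 36 groups were not independent, since some genes had several probe sets and all were read on the same arrays. The share over all probe sets was not computed, so the count is not a result about the members. In 4 of the 5 flagged groups the array was vehicle replicate 5. That array was at 6.61 log2 for Wnt4 1450782_at (nearest other vehicle array 8.08), at 8.07 for Sfrp1 1448395_at (9.96) and at 7.74 for Bmp4 (8.59), below the other vehicle arrays in each case, and at 10.29 for Bmp2 (8.93), above them. The remaining group was Bmp2 in baricitinib treated skin, where replicate 5 was at 8.46 and the nearest other array at 9.54. This array had a vehicle-like mean of leukocyte markers (9.13 log2), in which Cd8a differed most from the other baricitinib arrays (10.02 against 4.22 to 4.93). The other leukocyte markers differed less, such as Cd3e at 10.67 against 9.25 to 10.58. The part of these markers in its Bmp2 level was not tested.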

How the results depend on the processing

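The count of member probe sets past the threshold was 0 under each alternative except array quality weights, where it was 2: Wnt10a (-0.83, limma adjusted p = 0.0087) and Sfrp1 1460187_at (1.35, limma adjusted p = 0.043). The count over all probe sets was then 9676. Vehicle replicates 5 and 4 had weights of only 0.029 and 0.50, and baricitinib replicate 1 had 5.43. With each array left out in turn the count over all probe sets ran from 0 to 848, the latter without vehicle replicate 4; it was 12 without baricitinib replicate 5. With the replicate number as a block both counts were 0. Deviations of same-numbered arrays from their group means correlated at r from -0.227 to 0.088. The vehicle means included the divergent replicate 5, so these values cannot decide whether mice were paired. Of 268 differences of member probe sets under the alternatives, 260 kept their direction and 8 did not. The replicate block, the filter on the mean and the eBayes settings leave each difference unchanged. Those alternatives could therefore not change a direction, and the 260 include them. Directions changed on leaving out 1 array at Wnt5a 1436791_at (range -0.68 to 0.10) and 1456976_at (-0.20 to 0.78), Wnt4 1450782_at (-0.16 to 0.35), Sfrp1 1438620_x_at (-0.43 to 0.0094) and Grem1 (-0.27 to 1.06); at Wnt4 1450782_at it was also -0.030 with array quality weights. The causes were not tested. Probe sets as dim as Nog limit what can be detected.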

Other observations

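For each member the 2 genes with the most similar pattern were sought over the 9 arrays other than vehicle replicate 5, using its brightest probe set. With so few arrays and so many probe sets, high r values arise readily, and the arrays share both the group difference and RNA quality. For Wnt10a they were Mrps27 (r = 0.992) and Slk (0.991), for Wnt10b Pbx2 (0.966) and Eif2d (0.956), for Wnt5a Fras1 (0.981) and Lef1 (0.981), for Wnt4 Ranbp10 (0.988) and Slc22a23 (0.985) and for Sfrp1 Ccp110 (0.970) and Cpsf2 (0.963). For Sfrp2 they were Tmlhe (0.967) and Pgr (0.965), for Bmp2 Rgl3 (0.979) and Rhobtb3 (0.950), for Bmp4 Wwp1 (0.971) and Krt20 (0.962), for Nog Vwa3a (0.938) and Zbtb2 (0.914) and for Grem1 Dpp6 (0.962) and Gpr63 (0.959). These values are descriptions and were not tested.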
